A study of Mus musculus with 24 samples.

Results

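Lungs of Marfan mice were compared with lungs of wild-type mice after both had been given sildenafil, on 9 of the 20 arrays of the series that carry values: 5 Marfan arrays, numbered 8 to 12, and 4 wild-type arrays, numbered 1, 4, 5 and 6. The arrays were chosen by their titles, and the values compared are those of transcript probe sets, brought to 1 common distribution over the 20 arrays, with 1 probe set for each of 19494 genes. The mice were killed at an age of 6 months and the drug was given in drinking water starting at 6 weeks; sildenafil exposure is thus shared by the 2 groups compared and genotype is what differs between them. The labels call the disease genotype Marfan and name neither the allele nor the strain, and they give no sex, litter or batch. The same treatment text stands beside the vehicle samples, whose treatment is taken from their titles. The series planned 6 samples per group, and nothing else states that each array is a separate animal, and the p-values below reflect only how far these arrays differ among themselves. A further 4 arrays, titled as failing quality control, held no values and were not used. Vehicle-treated lungs, 6 wild-type and 5 Marfan arrays, serve below only to set the genotype difference under sildenafil beside the one without it.

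In Marfan syndrome the connective tissue is weakened by a mutated fibrillin-1, the main protein of the microfibrils that carry elastin and hold latent TGF-beta in the matrix. In lung, failure of elastic fibres widens the airspaces, and excess TGF-beta signalling drives fibroblasts to make collagen and tenascin. Sildenafil inhibits phosphodiesterase 5, which degrades cyclic GMP, the messenger through which nitric oxide relaxes the smooth muscle of pulmonary vessels.

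No gene passed limma's test at an adjusted p under 0.05. The lowest adjusted p was 0.9998 with all arrays and 0.9999 without Marfan array 9. At an unadjusted p under 0.05, which is no call, limma listed 758 genes, or 3.89% of those tested, 364 higher in Marfan lungs (1.87%) and 394 lower (2.02%). Without array 9 it listed 630 (3.23%), 330 higher (1.69%) and 300 lower (1.54%), of which 385 were among the 758 with the same sign, 50.8% of the longer list and 61.1% of the shorter. The groups did not overlap for 279 genes (1.43%): every Marfan array lay above every wild-type array for 132 (0.677%) and below for 147 (0.754%). Without array 9 this held for 519 (2.66%), 263 above (1.35%) and 256 below (1.31%). All differences below are Marfan minus wild-type in log2 units, given with the standard error of the fit, and stand with all 9 arrays unless it is said that array 9 was left out; "higher" and "lower" describe where the values lay. A gene is called dim when its mean over the 20 arrays was in the lower 50% of genes.

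Array 9 stood apart. On the leading principal component (18.3% of the variance) it scored 73.8, and the other 19 arrays scored between -9.06 and 9.10. Genes of endothelium, muscle, cilia and alveolar type 1 cells were low on it and genes of macrophages, chemokines and keratins high. The deposited medians did not separate the groups, 6.06 ± 0.28 (SD, n = 5) in Marfan and 6.06 ± 0.14 (SD, n = 4) in wild-type lungs (two-sided exact permutation test, p = 0.937; the smallest p that 126 assignments allow is 0.00794). Among the vehicle arrays the deposited medians did differ, 5.66 ± 0.19 (SD, n = 6) in wild-type and 6.03 ± 0.13 (SD, n = 5) in Marfan lungs. The vehicle differences and interactions below thus compare groups of unequal deposited brightness after the arrays were brought to 1 distribution. Y-linked genes were low on wild-type array 5 and Marfan array 8. None of 20 alveolar type 2 and none of 19 general endothelial markers was dim.

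**Figure D1:**
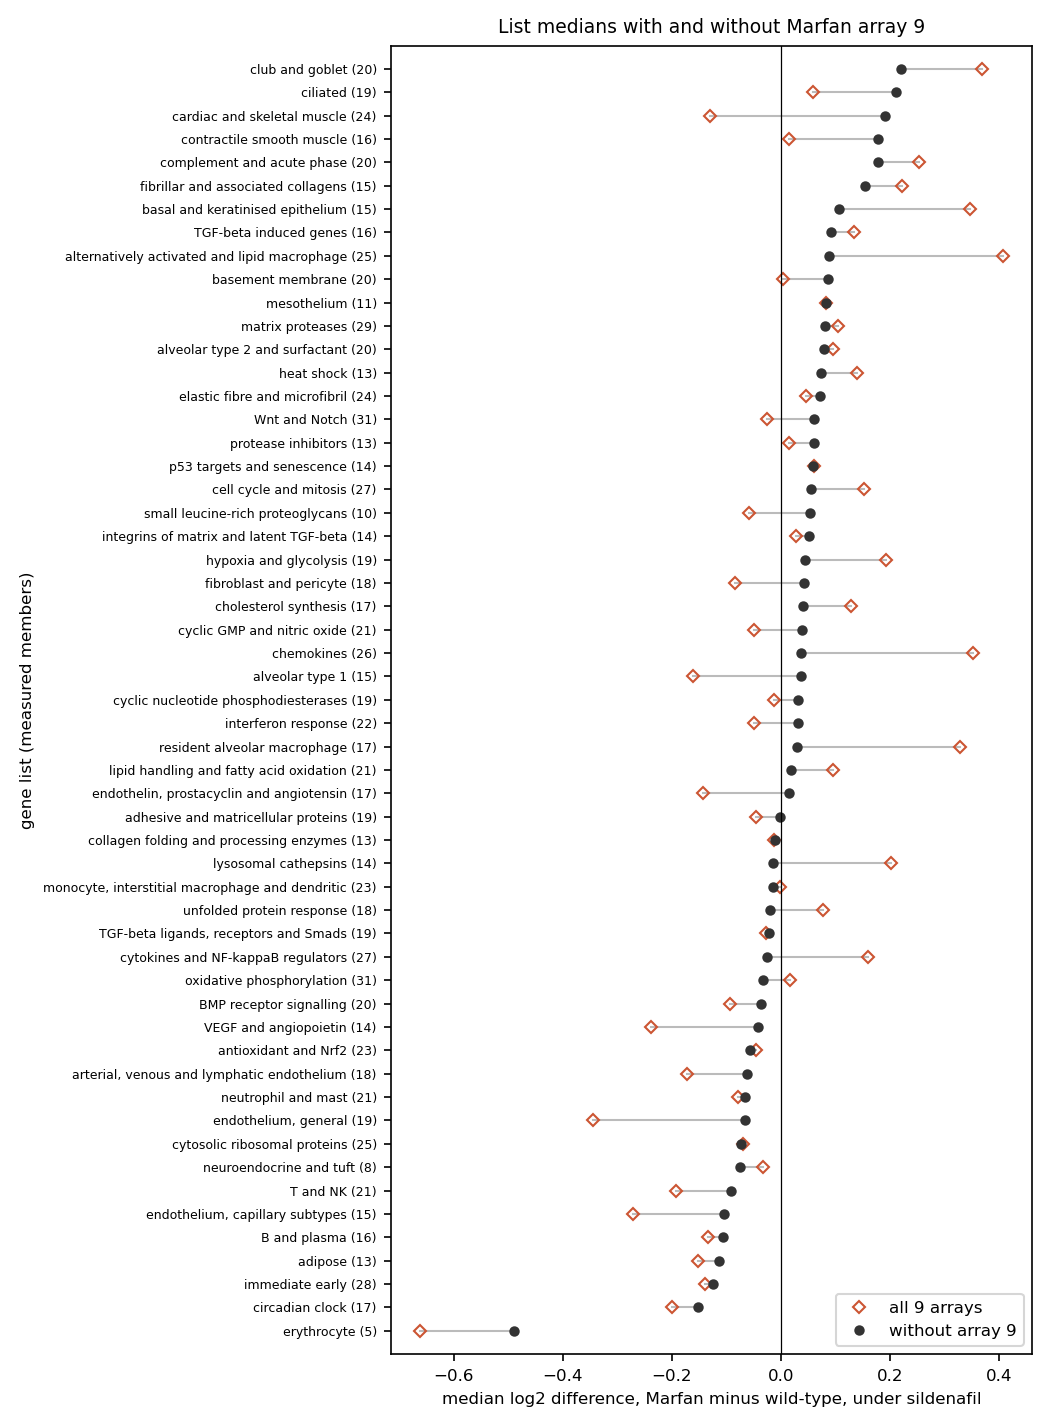
Median log2 difference (Marfan minus wild-type, under sildenafil; horizontal axis) of the measured members of 55 gene lists, with the number of measured members in brackets; open diamonds stand for all 9 arrays and filled circles for the arrays without Marfan array 9. The endothelial list moves from -0.34 to -0.07 and the cardiac and skeletal muscle list from -0.13 to 0.19 when array 9 is left out, while the erythrocyte list stays lowest at -0.66 and -0.49.

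The plot of list medians shows how much of each list rested on array 9. The collagen, ciliated cell, complement and erythrocyte lists kept the sign of their medians, and the muscle, chemokine and macrophage lists were among those that moved most. Over all genes, 48.7% lay higher and the median difference was -0.005 with all arrays; without array 9 these were 49.3% and -0.003.

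Collagen genes were higher in Marfan lungs. Of 15 measured fibrillar and associated collagens, 13 lay higher, with a median of 0.22, and 3 of them had an unadjusted p under 0.05 against 1.87% of all genes. Without array 9 again 13 lay higher, with a median of 0.155, and 2 had such a p against 1.69% of all genes. Of the 15 members 9 were dim. The mean of the list was 5.83, 5.76, 5.86 and 5.86 on wild-type arrays 1, 4, 5 and 6, and 6.02, 6.05, 6.07, 5.99 and 5.95 on Marfan arrays 8 to 12. The groups did not overlap, and array 9 lay within the other Marfan arrays here. The 11 vehicle arrays, at 5.57 to 6.36, covered both groups. In whole-lung RNA, more cells of a type and more RNA per cell cannot be told apart.

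Col3a1, the chain of collagen III, read 7.89, 7.61, 8.04 and 7.92 on the wild-type arrays and 8.65, 8.74, 8.45, 8.39 and 8.15 on the Marfan arrays. All Marfan values were above all wild-type values, a difference of 0.61 ± 0.19 (limma, unadjusted p = 0.00338, adjusted p = 0.9998). Col1a2, a chain of collagen I, read 7.56, 7.46, 7.75 and 7.74 against 8.01, 7.75, 8.17, 7.91 and 7.87, and again the groups did not overlap, by a narrow margin on array 9. Its difference was 0.31 ± 0.12, and the partner chain Col1a1 stood at 0.22 ± 0.14 with overlapping groups. Under vehicle the same genotype difference, on arrays not used here, was 0.41 ± 0.17 for Col3a1, 0.24 ± 0.11 for Col1a2 and 0.23 ± 0.12 for Col1a1, and the collagen list lay higher in 12 of 15 members (median 0.25).

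**Figure D2:**
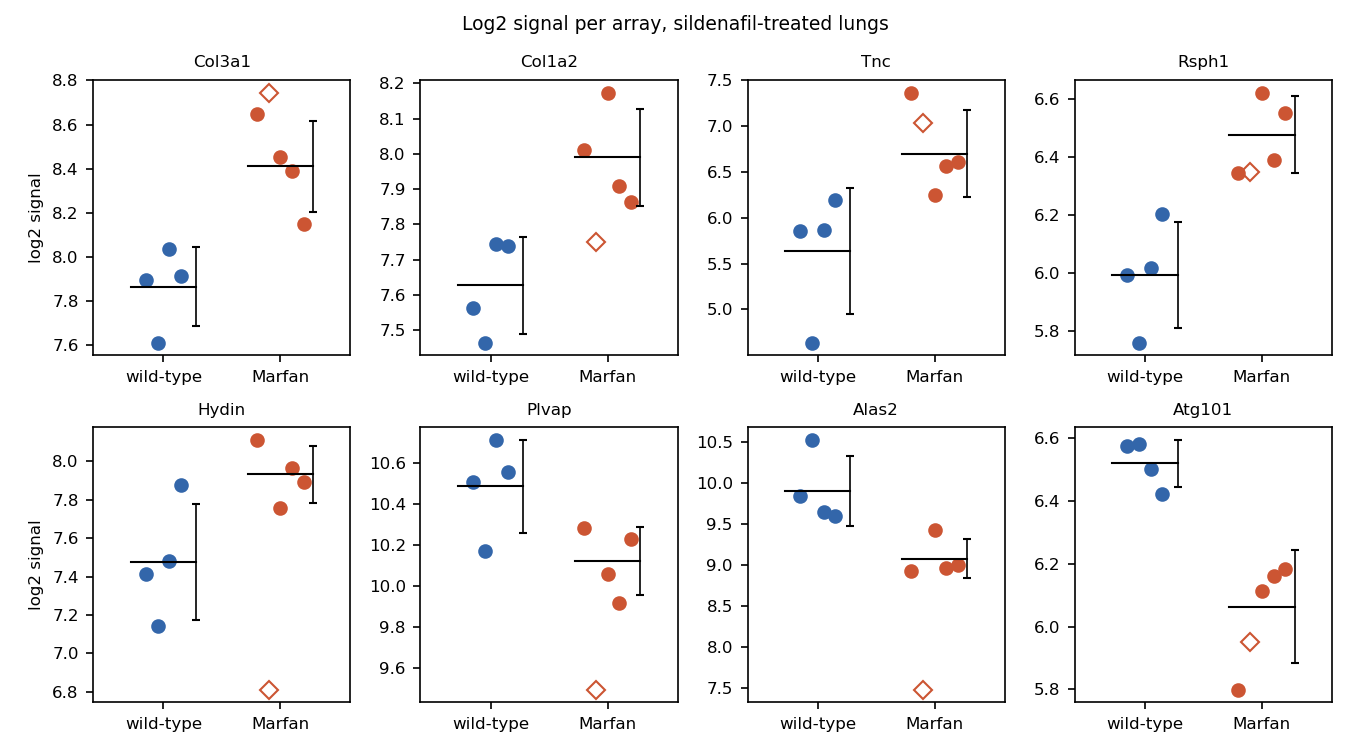
Log2 signal per array of 8 genes in sildenafil-treated lungs; blue circles are the 4 wild-type arrays, orange circles 4 Marfan arrays and the open diamond Marfan array 9, with black lines for the mean and bars for the SD of each group without array 9. Col3a1, Col1a2, Tnc and Rsph1 lie higher on all 5 Marfan arrays, Alas2 and Atg101 lower on all 5, while Hydin and Plvap overlap.

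Tnc, which encodes tenascin C, a matrix protein of repair and remodelling, lay higher on every Marfan array. This dim gene read 5.85, 4.64, 5.87 and 6.20 on the wild-type arrays and 7.37, 7.03, 6.25, 6.57 and 6.61 on the Marfan arrays, a difference of 1.13 ± 0.29, and of 1.06 ± 0.29 without array 9. Wild-type array 4 was the lowest and widens the gap. Under vehicle Tnc stood at 0.50 ± 0.26. Fibulin 2 (Fbln2, dim), a binding partner of elastic fibres, also did not overlap, at 5.50, 5.58, 5.68 and 5.57 against 5.75, 6.14, 6.07, 5.95 and 6.20 (0.44 ± 0.17). Fn1, fibronectin, stood at 0.58 ± 0.24 with array 9 at 10.75 and at 0.30 ± 0.17 without it. Podn, podocan, a small leucine-rich proteoglycan, stood at 0.60 ± 0.21, and at 0.62 ± 0.22 without array 9. The lists of these genes did not lie higher as a whole. Of 19 adhesive and matricellular genes, Tnc and Fn1 among them, 9 lay higher and 10 lower with and without array 9. Of 10 small leucine-rich proteoglycans 4 lay higher and 6 lower, and without array 9 6 lay higher and 4 lower.

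The elastic fibre list as a whole was split, 13 of 24 members higher (16 without array 9), whereas under vehicle 23 of 24 lay higher. Its mean was 7.37 in wild-type sildenafil, 7.38 in Marfan sildenafil, 7.16 in wild-type vehicle and 7.37 in Marfan vehicle lungs. Without array 9 the Marfan sildenafil mean was 7.44. The wild-type vehicle group was thus the low one, and the Marfan list mean was not lower under sildenafil than under vehicle. Fbln5, the fibulin that assembles elastic fibres, read 9.86, 9.76, 9.95 and 9.85 in wild-type and 9.83, 8.50, 9.58, 9.63 and 9.67 in Marfan lungs, overlapping only through array 8. Its difference of -0.41 ± 0.17 was -0.18 ± 0.10 without array 9 and 0.20 ± 0.16 under vehicle. The interaction, the test of whether the genotype difference depends on treatment, gave Fbln5 -0.61 (limma, unadjusted p = 0.015), or -0.37 without array 9 (unadjusted p = 0.00906), and it passed for no gene after adjustment. Mfap2, a microfibril protein, went the same way, at -0.42 ± 0.19 under sildenafil, -0.21 ± 0.14 without array 9 and 0.17 ± 0.17 under vehicle.

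Basement membrane genes depended on array 9, with 10 of 20 higher on all arrays and 17 of 20 without it. Col4a1, a chain of collagen IV, read 6.80, 6.73, 7.05 and 6.81 against 7.24, 6.98, 7.12, 7.20 and 7.60, so that only array 9 reached into the wild-type range (0.38 ± 0.18; 0.44 ± 0.18 without it). Under vehicle 19 of 20 lay higher, 10 with an unadjusted p under 0.05 against 3.48% of all genes. Under sildenafil only Col4a1 had such a p, where 1.87% of all genes lay higher with one.

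Among 29 matrix proteases 21 lay higher, with a median of 0.10. Mmp19, a metalloproteinase of basement membranes, read 7.36, 7.53, 7.39 and 7.54 in wild-type and 7.66, 11.14, 8.10, 7.90 and 7.61 in Marfan lungs. The groups did not overlap with or without array 9, but the difference was 1.03 ± 0.44 with it and 0.36 ± 0.18 without it. The dim collagenase gene Mmp13 stood at 1.51 ± 0.54, with 8.19 on array 9, and at 0.76 ± 0.29 without it, and Adam17, the sheddase that releases TNF and EGF receptor ligands, at 0.26 ± 0.12 and 0.17 ± 0.11. Timp1, an inhibitor of metalloproteinases, stood at 1.14 ± 0.43 and, without array 9, at 0.61 ± 0.29. Ctsk, the lysosomal collagenase cathepsin K, was 11.58 on array 9 and otherwise 7.22 to 8.45, against 6.87 to 7.46 in wild-type lungs. Mmp16 (dim), a membrane-bound metalloproteinase, lay lower at -0.49 ± 0.23.

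The ligands, receptors and Smads of TGF-beta were evenly spread, 8 of 19 higher and 11 lower. The receptor Tgfbr1 read 8.11, 8.12, 8.24 and 8.10 against 8.38, 9.03, 8.38, 8.33 and 8.32, so that all Marfan arrays were above all wild-type arrays (0.35 ± 0.13; 0.21 ± 0.11 without array 9). Endoglin (Eng), the endothelial co-receptor, lay lower, at 11.29, 11.30, 11.19 and 11.35 against 11.05, 9.59, 10.92, 10.98 and 11.22, overlapping through array 12 alone. It stood at -0.53 ± 0.21, at -0.24 ± 0.11 without array 9, and at 0.21 ± 0.19 under vehicle. Grem1 (dim), gremlin, an antagonist of BMP ligands, was 2.90, 2.45, 2.63 and 3.28 in wild-type and 3.16, 5.87, 3.44, 3.60 and 4.00 in Marfan lungs, a difference of 1.20 ± 0.35 (0.74 ± 0.22 without array 9). Only array 8 lay inside the wild-type range. Bambi, a decoy receptor, stood at -0.47 ± 0.18 and Smad6, an inhibitory Smad, at -0.56 ± 0.23; without array 9 these were -0.30 ± 0.15 and -0.25 ± 0.14.

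Pde5a, the target of sildenafil, did not separate the genotypes under the drug. It read 9.94, 10.06, 9.87 and 10.02 in wild-type lungs and 10.10, 8.71, 9.88, 9.99 and 10.05 in Marfan lungs. Its difference of -0.22 ± 0.20 became 0.03 ± 0.13 without array 9, and under vehicle it was 0.02 ± 0.18. Of 19 phosphodiesterases 8 lay higher and 11 lower, and without array 9 11 lay higher and 8 lower. Of 21 cyclic GMP and nitric oxide genes, Pde5a and Gucy1b1 among them, 7 lay higher and 14 lower. Without array 9 this turned to 14 higher and 7 lower. Pde9a, which also hydrolyses cyclic GMP, was 9.02, 9.15, 9.27 and 9.17 against 8.57, 7.74, 9.07, 8.96 and 8.98 (-0.49 ± 0.17; -0.26 ± 0.11 without array 9), with array 10 alone inside the wild-type range. Pde3a stood at -0.38 ± 0.18 and Gucy1b1, a subunit of the nitric oxide receptor, at -0.40 ± 0.19; without array 9 both differences were smaller, -0.12 ± 0.09 and -0.15 ± 0.12.

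Endothelial genes lay lower in Marfan lungs under sildenafil. Of 19 general endothelial markers 18 lay lower, 6 with an unadjusted p under 0.05 against 2.02% of all genes, and without array 9 15 lay lower, 4 with such a p against 1.54%. The list mean was 9.81, 9.80, 9.79 and 9.81 on the wild-type arrays and 9.70, 8.62, 9.67, 9.71 and 9.77 on the Marfan arrays. The groups did not overlap. Array 9 lay far below the rest, and the other 4 Marfan arrays lay just below the wild-type range. The 11 vehicle arrays, at 9.48 to 9.81, reached above and below the Marfan arrays other than array 9. Under vehicle 14 of 19 lay higher in Marfan lungs, with a median of 0.16. List means averaged 9.80 in wild-type sildenafil, 9.49 in Marfan sildenafil, 9.57 in wild-type vehicle and 9.68 in Marfan vehicle lungs. Without array 9 the Marfan sildenafil mean was 9.71, above both vehicle means and below wild-type sildenafil. The interaction had an unadjusted p under 0.05 by limma for 6 of 19, against 4.47% of all genes.

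Plvap, the protein of the diaphragms of capillary fenestrae and caveolae, read 10.51, 10.17, 10.71 and 10.56 in wild-type and 10.28, 9.49, 10.06, 9.92 and 10.23 in Marfan lungs. Its difference was -0.49 ± 0.15, or -0.37 ± 0.13 without array 9, and the groups overlapped through wild-type array 4. Sox18, a transcription factor of developing vessels, stood at -0.46 ± 0.15 and -0.29 ± 0.12, and Ramp2, a subunit of the adrenomedullin receptor, at -0.50 ± 0.19 and -0.26 ± 0.13, each with and then without array 9. Vwf, von Willebrand factor, stood at -0.41 ± 0.19, at -0.25 ± 0.17 without array 9, and at 0.38 ± 0.18 under vehicle. The genotype difference in Plvap was 0.18 ± 0.14 under vehicle, and the interaction was -0.67 (limma, unadjusted p = 0.00343, and 0.00508 without array 9). The 4 groups give the levels behind this: Plvap averaged 10.49 in wild-type sildenafil, 10.00 in Marfan sildenafil, 9.92 in wild-type vehicle and 10.09 in Marfan vehicle lungs, so that the wild-type sildenafil group was the high one.

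In the capillary list 12 of 15 members lay lower with and without array 9. Gpihbp1, which carries lipoprotein lipase to the capillary lumen, stood at -0.41 ± 0.14 and -0.24 ± 0.09, and Hpgd, the prostaglandin-degrading dehydrogenase, read 12.06, 12.29, 12.09 and 12.27 against 12.00, 10.84, 12.03, 11.98 and 11.98 without overlap. Esm1, a proteoglycan secreted by endothelial tip cells, read 6.97, 7.15, 6.98 and 6.64 against 6.18, 5.60, 6.67, 6.38 and 6.56 (-0.66 ± 0.23; -0.49 ± 0.21 without array 9). Under vehicle it stood at -0.96 ± 0.21, so that Esm1 lay lower in Marfan lungs in both comparisons. Among 18 arterial, venous and lymphatic markers 14 lay lower both ways. Slc6a2, the noradrenaline transporter, which marks venous endothelium of the lung, read 8.12, 8.13, 8.53 and 7.58 against 7.71, 6.36, 7.29, 7.20 and 7.55 (-0.87 ± 0.25; -0.65 ± 0.21 without array 9). Lyve1, the hyaluronan receptor of lymphatic vessels, stood at -0.57 ± 0.21 and, without array 9, at -0.34 ± 0.16.

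**Figure D3:**
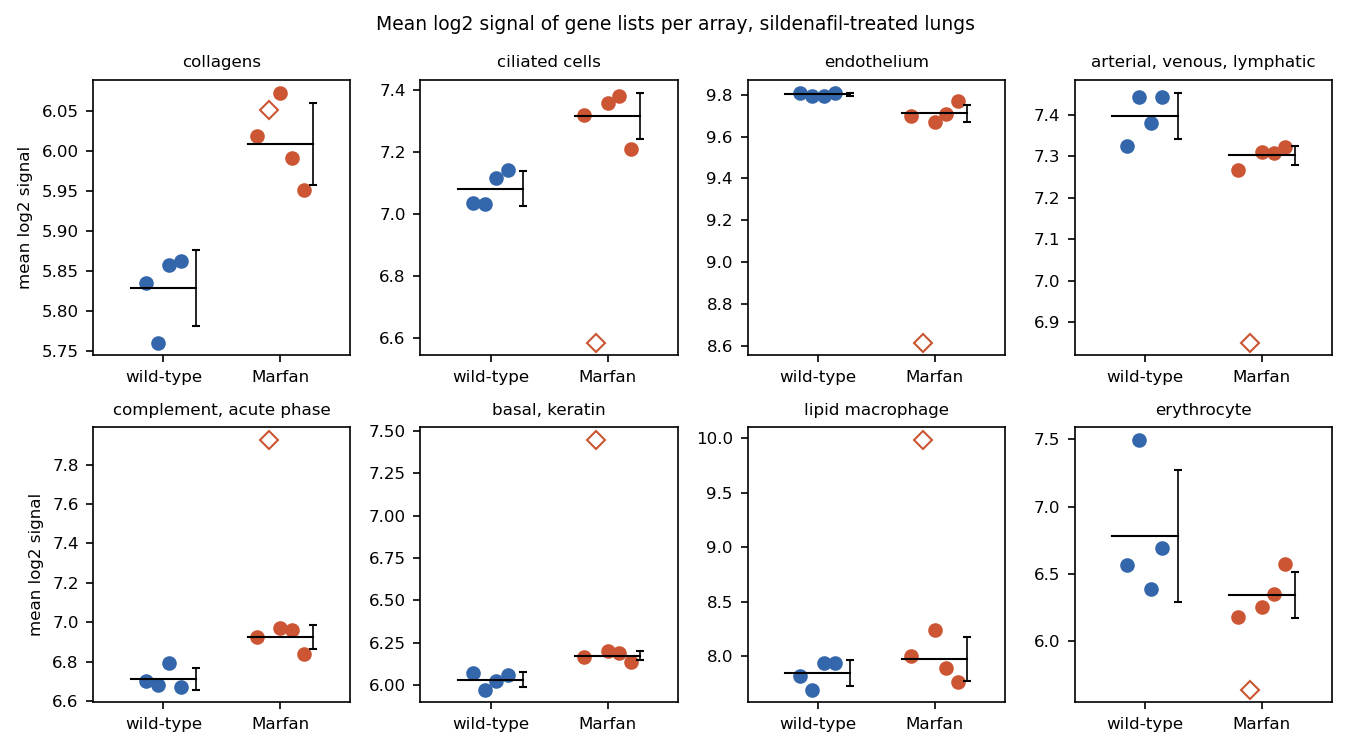
Mean log2 signal of 8 gene lists on each sildenafil array; symbols and bars as in the plot of single genes (blue, wild-type; orange, Marfan; open diamond, array 9; lines and bars, mean and SD without array 9), with an axis of its own for each list. The collagen list separates all 5 Marfan arrays from the 4 wild-type arrays, and the ciliated list separates them only without array 9, which lies at 6.59.

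Genes of ciliated airway cells were higher on 4 of 5 Marfan arrays and low on array 9. Motile cilia are built from dynein arms, radial spokes and a central pair, and the genes for these parts are switched on together as a multiciliated cell matures. The list mean was 7.04, 7.03, 7.12 and 7.14 on the wild-type arrays and 7.32, 6.59, 7.36, 7.38 and 7.21 on the Marfan arrays. With all arrays 16 of 19 members lay higher, with a median of 0.06 and 1 with an unadjusted p under 0.05 against 1.87% of all genes. Without array 9 it was 18 of 19, with a median of 0.21, and 7 had such a p against 1.69% of all genes. The 11 vehicle arrays, at 6.99 to 7.44, covered both groups, and under vehicle 5 of 19 lay higher.

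Rsph1, of the radial spoke head, read 5.99, 5.76, 6.02 and 6.20 in wild-type and 6.34, 6.35, 6.62, 6.39 and 6.55 in Marfan lungs. It was the only list member whose groups did not overlap with array 9 included, at 0.46 ± 0.14. Under vehicle it stood at -0.28 ± 0.12, and the interaction of 0.74 (limma, unadjusted p = 0.000509) was the smallest p among brighter genes whose sildenafil difference had an unadjusted p under 0.05 with and without array 9. The sildenafil difference is a part of the interaction, so that selection itself favours small interaction p-values. The group means of Rsph1 were 5.99 in wild-type sildenafil, 6.45 in Marfan sildenafil, 6.58 in wild-type vehicle and 6.29 in Marfan vehicle lungs. Hydin, of the central pair, read 7.41, 7.14, 7.48 and 7.88 against 8.11, 6.81, 7.76, 7.97 and 7.89 (0.23 ± 0.20; 0.45 ± 0.14 without array 9). Dnaic2, an intermediate chain of outer dynein arms, read 6.58, 6.21, 6.32 and 6.53 against 6.96, 5.89, 6.88, 6.93 and 6.87, and array 9 was both the lowest of all and the only overlap. Dnah9, a dynein heavy chain, and Ccno (dim), a cyclin needed to multiply centrioles, stood at 0.22 ± 0.19 and 0.44 ± 0.25, and without array 9 at 0.43 ± 0.15 and 0.59 ± 0.24. Cfap65 and Cfap206, cilia-associated genes outside the list that the smallest p-values brought in, stood at 0.38 ± 0.12 and 0.40 ± 0.13 without array 9, with no overlap between groups. On array 9 they read 7.22 and 7.54, below every other array of both groups.

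The promoters of ciliary genes often carry the X-box, a site of RFX transcription factors, so the 250 bases before the start were read for the 4 list members with the smallest p without array 9 among those with an entry in the RefSeq promoter table (build GRCm38.p6). Capitals mark GTTGCC, an arm of the X-box, on either strand, and the line for Dnah9 has no such match.
Hydin (chr8:110266727-110266976, plus strand): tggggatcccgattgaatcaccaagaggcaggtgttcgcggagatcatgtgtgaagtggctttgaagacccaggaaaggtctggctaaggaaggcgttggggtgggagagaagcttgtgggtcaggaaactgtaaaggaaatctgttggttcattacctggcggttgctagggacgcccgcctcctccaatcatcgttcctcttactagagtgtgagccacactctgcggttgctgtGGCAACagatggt
Dnaic2 (chr11:114727169-114727418, plus strand): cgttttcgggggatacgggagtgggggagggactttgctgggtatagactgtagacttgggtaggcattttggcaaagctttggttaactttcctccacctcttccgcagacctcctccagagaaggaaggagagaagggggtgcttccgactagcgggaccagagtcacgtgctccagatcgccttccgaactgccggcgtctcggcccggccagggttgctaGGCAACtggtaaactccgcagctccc
Ccno (chr13:112987552-112987801, plus strand): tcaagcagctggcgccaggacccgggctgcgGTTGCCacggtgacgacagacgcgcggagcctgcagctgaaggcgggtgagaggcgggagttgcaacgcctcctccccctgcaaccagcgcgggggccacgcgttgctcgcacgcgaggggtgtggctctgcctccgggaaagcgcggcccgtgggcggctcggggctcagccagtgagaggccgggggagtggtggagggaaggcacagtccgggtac
Dnah9 (chr11:66168552-66168801, minus strand): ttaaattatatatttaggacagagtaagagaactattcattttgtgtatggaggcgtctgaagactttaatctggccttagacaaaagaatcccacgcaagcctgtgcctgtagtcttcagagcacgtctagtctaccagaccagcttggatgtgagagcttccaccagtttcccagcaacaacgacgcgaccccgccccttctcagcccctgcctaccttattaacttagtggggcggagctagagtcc
GTTGCC was found in 9 of the 16 ciliated list members with a promoter in the table, and in 11.8% of all 27025 genes there. The match began 13 bases before the start in Hydin and 26 before it in Dnaic2, both on the opposite strand, and 219 before it in Ccno. After the sequences had been read, GTTGC and GGCAAC with 2 or 3 free letters between them were also searched; Hydin, Dnaic2 and Dynlrb2 carry this pair, as do 0.289% of all genes, and its second arm is a GTTGCC match. GTTGCC and GGNAAC with 2 letters between them were found in 0 of 16 (0.292% of all genes), and the forkhead site TGTTTAC in Sntn alone (3.54%). Both strands were read in every search.

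Secretory airway genes moved with the ciliated list only in part. Of 20 club and goblet genes 16 lay higher, with a median of 0.37 (0.22 without array 9), but the list mean of 8.03, 7.55, 8.84 and 8.61 in wild-type and 8.80, 8.95, 8.55, 8.70 and 8.18 in Marfan lungs overlapped widely. How much airway each sample held was not tested. Scgb3a1, a secretoglobin, read 9.37, 8.41, 10.82 and 10.61 against 10.57, 11.08, 10.52, 10.77 and 9.91, a difference of 0.77 ± 0.37 with wild-type arrays 1 and 4 as the low ones. Scgb1a1, the main club cell protein, was the brightest gene on each of the 9 arrays, and the common distribution then gives it the same value of 13.38 everywhere and no measurable difference. The epithelial keratins Krt8 and Krt19 stood at 0.35 ± 0.14 and 0.37 ± 0.16, and without array 9 at 0.26 ± 0.13 and 0.32 ± 0.16. Among alveolar genes, 17 of 20 surfactant and type 2 genes lay higher with a median of 0.10, among them Sftpd, surfactant protein D, at 0.34 ± 0.14 (0.19 ± 0.11 without array 9). Igfbp2, an insulin-like growth factor binding protein of type 1 cells, read 10.71, 10.61, 10.10 and 10.35 against 10.11, 8.95, 10.13, 9.85 and 10.36 and overlapped (-0.56 ± 0.20; -0.33 ± 0.14 without array 9). Of the 15 alveolar type 1 genes 14 lay lower with all arrays (median -0.16), but 9 lay higher without array 9 (median 0.04), so that the sign of the list median turned while Igfbp2 stayed lower.

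Erythroid genes lay lower in Marfan lungs. All 5 measured members lay lower with and without array 9, with medians of -0.66 and -0.49, of 11 genes listed. The list mean was 6.57, 7.50, 6.39 and 6.69 in wild-type and 6.18, 5.64, 6.26, 6.35 and 6.57 in Marfan lungs, with wild-type array 4 the highest. Alas2, the first enzyme of haem synthesis in red cell precursors, read 9.84, 10.53, 9.64 and 9.60 against 8.93, 7.48, 9.43, 8.96 and 9.00. All Marfan arrays were below all wild-type arrays, by -1.14 ± 0.30, or -0.82 ± 0.23 without array 9. Its group means were 9.90 in wild-type sildenafil, 8.76 in Marfan sildenafil, 9.81 in wild-type vehicle and 9.86 in Marfan vehicle lungs, so the Marfan sildenafil group was the low one, and the interaction was -1.19 (limma, unadjusted p = 0.00741, and 0.00896 without array 9). Bpgm, which makes 2,3-bisphosphoglycerate in red cells, stood at -0.66 ± 0.23 and Slc4a1, the anion exchanger of their membrane, at -0.80 ± 0.39, both with overlapping groups. How much blood the samples held was not tested.

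The letters before the starts of Alas2 and of both collagen genes whose groups did not overlap were read as well, with capitals in Alas2 for AGATAA, to which GATA factors bind, and in the collagens for CCAAT.
Alas2 (chrX:150547167-150547416, plus strand): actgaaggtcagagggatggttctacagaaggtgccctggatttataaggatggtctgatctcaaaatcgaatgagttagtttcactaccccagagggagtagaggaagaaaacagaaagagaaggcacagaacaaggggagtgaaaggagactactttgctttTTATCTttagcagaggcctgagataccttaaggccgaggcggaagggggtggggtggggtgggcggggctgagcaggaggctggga
Col1a2 (chr6:4505368-4505617, plus strand): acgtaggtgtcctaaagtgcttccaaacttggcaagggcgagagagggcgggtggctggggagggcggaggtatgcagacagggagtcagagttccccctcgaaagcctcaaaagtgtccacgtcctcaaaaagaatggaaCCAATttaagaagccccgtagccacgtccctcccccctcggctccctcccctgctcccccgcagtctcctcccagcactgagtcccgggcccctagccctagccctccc
Col3a1 (chr1:45311288-45311537, plus strand): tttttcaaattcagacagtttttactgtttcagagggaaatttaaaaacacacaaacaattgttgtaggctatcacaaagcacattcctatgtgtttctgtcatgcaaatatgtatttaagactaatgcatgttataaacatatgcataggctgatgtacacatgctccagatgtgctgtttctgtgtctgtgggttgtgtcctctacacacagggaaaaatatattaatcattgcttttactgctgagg
AGATAA, on either strand, was present in 2 of 4 erythrocyte list members with a promoter (Alas2 and Epb42) and in 11.4% of all genes. CCAAT was present in 5 of 12 collagens, Col1a2 but not Col3a1 among them, and in 37.5% of all genes. The other searches gave GGAAGTG, an ETS site, in 2 of 9 general endothelial genes (9.77% of all genes), CACGTG in 5 of 15 clock genes (6.86%), TTCCTGGAA in 1 of 14 complement and acute phase genes (0.773%) and GAA, TTC and GAA with 2 letters between each, the heat shock element, in 2 of 11 heat shock genes (0.514%).

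Complement and acute phase genes lay higher on all 5 Marfan arrays in the mean of their list, but not gene by gene. The list mean was 6.70, 6.68, 6.79 and 6.67 in wild-type and 6.93, 7.93, 6.97, 6.96 and 6.84 in Marfan lungs, with no overlap. The 11 vehicle arrays, at 6.66 to 6.97, reached from below the wild-type arrays into the Marfan range. Of 20 members 16 lay higher (18 without array 9). For each of the 20 the groups overlapped with and without array 9, and 0.677% and 1.35% of all genes lay higher without overlap. Cfb, complement factor B of the alternative pathway, read 5.92, 6.17, 5.72 and 5.98 against 6.56, 7.38, 6.09, 7.09 and 6.07 (0.69 ± 0.22; 0.50 ± 0.20 without array 9). Under vehicle it stood at 0.48 ± 0.20. C6, a part of the membrane attack complex, read 8.69, 8.71, 8.81 and 8.84 against 9.36, 9.73, 9.11, 9.16 and 8.76, overlapping through array 12. Saa3 (dim), serum amyloid A3, was 9.94 on array 9 and 4.79 to 5.88 on the other Marfan arrays, against 4.38 to 4.99 in wild-type lungs.

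Chemokine counts depended on array 9, with 22 of 26 higher on all arrays and 16 of 26 without it. Cxcl12, the ligand of Cxcr4, was the member whose groups did not overlap, at 8.25, 8.14, 8.13 and 8.23 against 8.43, 8.77, 8.28, 8.63 and 8.61 (0.35 ± 0.12; 0.29 ± 0.12 without array 9). Its difference under vehicle was 0.39 ± 0.11. Cxcl13, which attracts B cells, stood at 0.59 ± 0.20 and, without array 9, at 0.47 ± 0.19, but at -0.24 ± 0.18 under vehicle. Ccl2 (dim), which attracts monocytes, stood at 0.94 ± 0.33 with 7.88 on array 9 and at 0.48 ± 0.19 without it. T and NK cell genes lay lower in 18 of 21 members with and without array 9, none with an unadjusted p under 0.05 by limma. Of 25 genes of alternatively activated and lipid-laden macrophages 21 lay higher (median 0.41), and 18 without array 9 (median 0.09). Apoc1, an apolipoprotein on this list, lay the other way and stood at -0.20 ± 0.28 with array 9 at 8.42 and at -0.55 ± 0.19 without it. Arg2 (dim), the mitochondrial arginase, stood at 0.58 ± 0.23 and 0.32 ± 0.18, and Ltf (dim), lactoferrin, at 1.13 ± 0.40 and 0.62 ± 0.26. Ltf belongs to the neutrophil and mast cell list, of which 13 of 21 lay lower with and without array 9.

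Heat shock genes lay higher in 11 of 13 members (10 without array 9), and lower in 10 of 13 under vehicle. Hsp90aa1, the inducible cytosolic HSP90, read 9.69, 9.85, 9.78 and 10.10 in wild-type and 10.42, 9.83, 10.01, 10.17 and 10.15 in Marfan lungs. It stood at 0.26 ± 0.12, at 0.33 ± 0.11 without array 9 and at -0.22 ± 0.11 under vehicle, with an interaction of 0.48 (limma, unadjusted p = 0.0057, and 0.000939 without array 9). Its means were 9.86 in wild-type sildenafil, 10.11 in Marfan sildenafil, 10.04 in wild-type vehicle and 9.82 in Marfan vehicle lungs. Hspa4l, a nucleotide exchange factor of HSP70, read 8.62, 8.28, 8.48 and 8.66 against 9.15, 8.38, 8.71, 8.85 and 8.80 and overlapped through array 9 alone. Angptl4, a lipase inhibitor that hypoxia and fatty acids switch on, stood at 0.47 ± 0.18 under sildenafil and -0.26 ± 0.16 under vehicle. Of 14 VEGF and angiopoietin genes, Angptl4 among them, 10 lay lower, and of 21 lipid handling genes, which also include it, 15 lay higher. Bnip3, a mitophagy receptor, stood at -0.24 ± 0.10, whereas 14 of 19 hypoxia and glycolysis genes lay higher (12 without array 9). Gclc, the rate-limiting enzyme of glutathione synthesis, stood at 0.37 ± 0.14 (0.22 ± 0.11 without array 9). Of 23 antioxidant genes, Gclc among them, 12 lay lower, and 18 without array 9.

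Of 27 measured cell cycle genes, 20 of them dim, 20 lay higher and 7 lower with a median of 0.15, and without array 9 15 lay higher and 12 lower with a median of 0.06. An unadjusted p under 0.05 was reached by 1 higher member, against 1.87% of all genes, and by 2 lower members, against 2.02%. These are the genes described next. Without array 9 such a p was reached by 1 higher member, against 1.69% of all genes, and by 3 lower members, against 1.54%. Nusap1, a spindle protein, read 6.48, 6.73, 6.63 and 6.51 in wild-type and 6.12, 6.50, 5.84, 6.28 and 5.82 in Marfan lungs, so that array 9 alone reached the wild-type range (-0.47 ± 0.16; -0.57 ± 0.16 without it), and under vehicle it stood at -0.39 ± 0.14. Bub1b (dim), a spindle checkpoint kinase, read 4.97, 4.92, 5.42 and 4.84 against 4.72, 5.14, 3.96, 4.43 and 3.26 (-0.74 ± 0.29). Cdk1 (dim), the kinase that starts mitosis, lay the other way at 3.64, 3.47, 3.31 and 3.30 against 4.29, 5.45, 3.63, 4.43 and 3.58 (0.85 ± 0.29; 0.55 ± 0.24 without array 9).

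Atg101 and Atg14 were among the 10 lower genes with the smallest p without array 9; other autophagy genes were not counted. Atg101, of the ULK1 complex, which starts autophagy, read 6.58, 6.58, 6.50 and 6.42 in wild-type and 5.80, 5.95, 6.11, 6.16 and 6.18 in Marfan lungs. The groups did not overlap, with a difference of -0.48 ± 0.12 that was -0.46 ± 0.13 without array 9. Group means were 6.52 in wild-type sildenafil, 6.04 in Marfan sildenafil, 6.51 in wild-type vehicle and 6.63 in Marfan vehicle lungs, so the Marfan sildenafil group was the low one (interaction -0.60, limma, unadjusted p = 0.00115). Atg14, a subunit of the Beclin 1 complex, read 6.45, 6.58, 6.29 and 6.76 against 5.78, 6.14, 5.73, 5.99 and 6.39, overlapping through array 12 (-0.51 ± 0.15), and stood at -0.07 ± 0.13 under vehicle.

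The other lower genes with the smallest p without array 9 differed in how far that array stood from the rest. Tmem87a, a Golgi membrane protein, read 9.34, 9.51, 9.23 and 9.29 against 8.97, 9.05, 9.02, 9.05 and 9.04 (-0.32 ± 0.09), a narrow range in the Marfan group, and stood at -0.21 ± 0.08 under vehicle. Ccdc71 read 8.12, 7.95, 8.09 and 8.03 against 7.68, 7.81, 7.86, 7.65 and 7.65 (-0.31 ± 0.10) and stood at 0.14 ± 0.09 under vehicle. Samd5 also did not overlap, at -0.68 ± 0.20 with array 9 far down at 6.58 and at -0.43 ± 0.14 without it. Fam171a1 did not overlap either, at -0.42 ± 0.13 and, without array 9, at -0.28 ± 0.10. Pkig, an inhibitor of protein kinase A, overlapped through array 10 alone (-0.49 ± 0.14), and wild-type array 4 was its highest at 9.81. Ncf4, a subunit of the phagocyte NADPH oxidase, and Ostf1 were above the wild-type range on array 9, at 8.21 and 9.33, and below it on the other Marfan arrays. Without it Ncf4 stood at -0.46 ± 0.14 and Ostf1 at -0.28 ± 0.09.

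On the higher side Ntrk2, the BDNF receptor TrkB, read 5.87, 6.15, 5.82 and 6.21 in wild-type and 7.16, 5.64, 6.63, 7.34 and 7.50 in Marfan lungs. Array 9 was below the wild-type arrays and the other 4 above them, which gives 0.84 ± 0.36 with it and 1.14 ± 0.31 without it. When only the 8 arrays of both groups without array 9 were fitted, Ntrk2 was the 1 gene past the threshold (1.14 ± 0.17, limma, adjusted p = 0.0324). The difference is the one of the 4-group fit, in which no gene had an adjusted p below 0.9999 by limma. The 8-array fit leaves the vehicle arrays out of the spread. Ntrk2 had an SD of 0.91 in Marfan vehicle (n = 5) and 0.37 in wild-type vehicle lungs (n = 6). In wild-type sildenafil lungs its SD was 0.20 (n = 4). Under vehicle Ntrk2 stood at 0.87 ± 0.32. Mapkbp1, a scaffold of JNK signalling, read 7.49, 7.42, 7.33 and 7.42 against 7.91, 7.63, 7.78, 7.82 and 7.74 without overlap (0.36 ± 0.12), and stood at 0.49 ± 0.11 under vehicle. Pkhd1l1, a large membrane protein related to fibrocystin, stood at 0.74 ± 0.25 and 0.56 ± 0.23 under sildenafil and vehicle. Cds1, an enzyme of phospholipid synthesis, stood at 0.31 ± 0.12, and Fign, a microtubule-severing ATPase, at 0.15 ± 0.22 with array 9 at 5.27 and at 0.44 ± 0.14 without it.

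**Figure D4:**
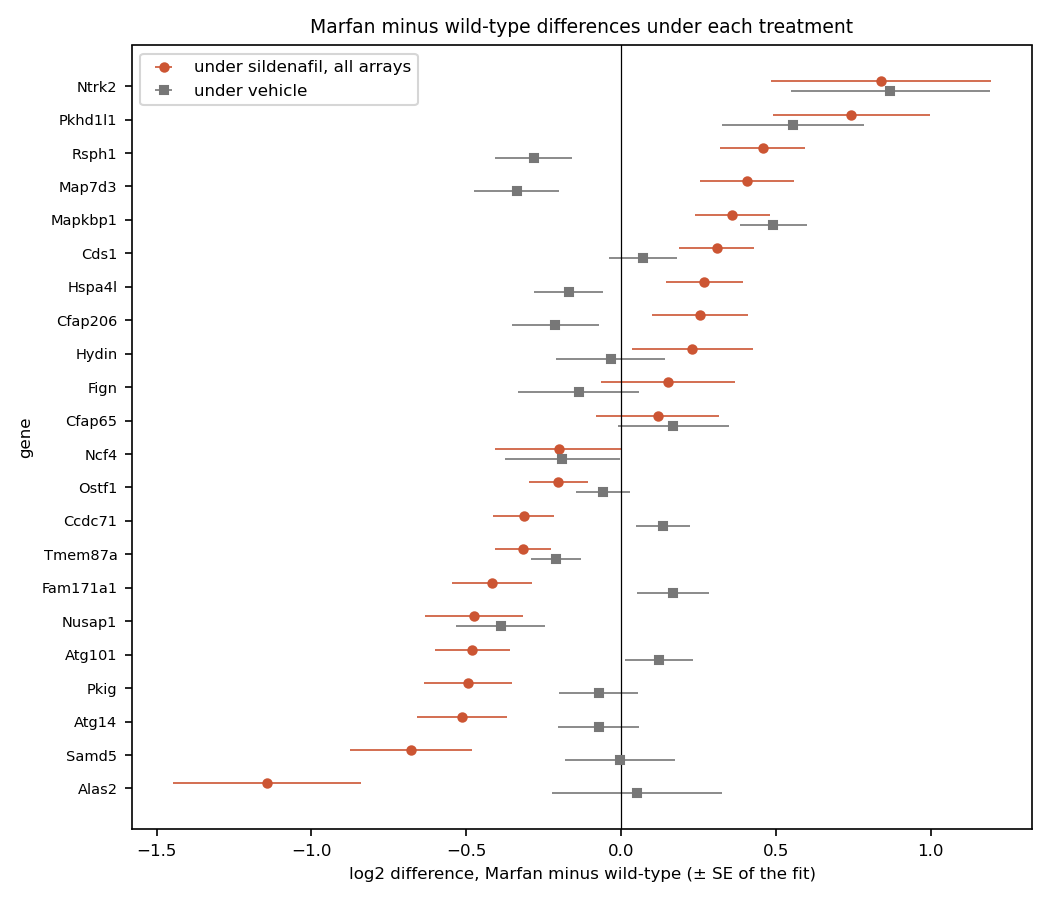
Log2 difference, Marfan minus wild-type, with the standard error of the fit, under sildenafil with all arrays (orange circles) and under vehicle (grey squares), for the 20 genes with the smallest p without array 9 and the genes added for their interaction. Ntrk2, Pkhd1l1, Mapkbp1, Nusap1 and Tmem87a lie on the same side under both treatments; Rsph1 and Map7d3 lie on opposite sides.

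The differences under sildenafil and under vehicle come from separate arrays in 1 fit. Over all genes they correlated weakly (Pearson's r = 0.031 across 19494 genes, which are not independent replicates), and 50.7% had the same sign. Of the 758 genes with an unadjusted p under 0.05 under sildenafil 55.5% had the same sign under vehicle, and of the 630 without array 9 51.7% did. The vehicle comparison itself listed 1223 genes (6.27%) at an unadjusted p under 0.05 and 0 after adjustment. The interaction had 872 genes (4.47%) at an unadjusted p under 0.05, 848 (4.35%) without array 9 and 0 at an adjusted p under 0.05 by limma. The rule for the interaction first kept genes by their sildenafil difference, which is a part of the interaction. Small interaction p-values of the genes it named were thus partly set by that choice and are no separate evidence. Beside Rsph1, Atg101 and Ccdc71, the rule named Map7d3, a microtubule-binding protein, with 5.72, 6.10, 5.60 and 6.30 against 6.16, 6.51, 6.54, 6.26 and 6.19. It stood at 0.41 ± 0.15 under sildenafil and -0.34 ± 0.14 under vehicle, with overlapping groups. Fam171a1 stood at -0.42 ± 0.13 and 0.17 ± 0.12.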

How the data were processed

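RNA from whole mouse lung was extracted with QIAzol and RNeasy, had an integrity number above 8.5, and was amplified from 700 pg with the GeneChip Pico kit, per the labels' protocols. Per the submitters' processing notes the authors used Affymetrix Expression Console and RMA; the sources used here give neither versions nor whether arrays were normalized jointly. Values were deposited as log2 signal.

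Of 29129 entries, the 22142 transcript probe sets were quantile-normalized over the 20 arrays with values. The platform annotation gives 19527 of them 1 symbol, 2615 none and 0 several; the probe set with the highest mean stood for each gene. The 4 groups were fitted together with limma 3.58.1 in R 4.3.3 (lmFit, eBayes with a trend, 16 residual degrees of freedom, two-sided, Benjamini-Hochberg over 19494 genes), and again without array 9 (15). The number of arrays limits precision: the median standard error was 0.18 both ways. The code was tested on simulated data.

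Named genes were, in each direction, the 10 brighter genes with the lowest p without array 9 and the same sign with all arrays, up to 6 per list, Pde5a, and 5 for the interaction; predicted genes and receptors of smell and taste were skipped. Members and lists were chosen with earlier results of these data known. Lists were described by counts and medians, with no test. Promoters are RefSeq's (GRCm38.p6). Alternatives tried were the deposited values, median centring, mean over probe sets, array weights, a robust fit, brighter genes, array brightness or Y-linked genes as a covariate, the 2 groups alone, and leaving out each array. Fbn1 and Xist are not analysed here.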

Additional observations from a re-analysis of the deposited data

Results flagged for a closer look

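Of 292 tests of a group's highest or lowest array, over 91 genes and 55 lists, 60 found an array farther from the rest than Dixon's 95% value; chance does so in about 1 of 20 groups. Array 9 was that array in 52. It was known to stand apart before these tests, and genes were named partly by p with and without it. The genes and lists also share arrays and members, so the rate of 1 in 20 is no measure for the 60.

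Genes far above the other Marfan arrays on array 9, with their log2 signal there, were Fn1 (10.75), Mmp19 (11.14), Adam17 (8.68), Timp1 (8.97), Ctsk (11.58), Tgfbr1 (9.03), Ccl2 (7.88) and Ltf (8.25). So were Saa3 (9.94) and Ncf4 (8.21).

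Genes far below the other Marfan arrays on array 9 were Fbln5 (8.50), Bambi (6.01), Eng (9.59), Pde5a (8.71), Pde3a (8.08), Gucy1b1 (7.83), Ramp2 (9.23) and Gpihbp1 (8.49). Also far below were Hpgd (10.84), Lyve1 (9.35), Hydin (6.81), Dnaic2 (5.89), Alas2 (7.48), Bpgm (6.30), Actc1 (7.37) and Fign (5.27). Also far below were Cfap65 (7.22), Cfap206 (7.54) and Samd5 (6.58).

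List means far above the other Marfan arrays on array 9, in log2 signal, were those of matrix proteases (6.91), lysosomal cathepsins (9.42), basal and keratinised epithelium (7.45), resident alveolar macrophage (9.36), alternatively activated and lipid macrophage (9.99), monocyte, interstitial macrophage and dendritic (7.90), cytokines and NF-kappaB regulators (7.51) and chemokines (8.05). The same held for complement and acute phase (7.93), unfolded protein response (9.04), hypoxia and glycolysis (8.45) and lipid handling and fatty acid oxidation (8.71).

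List means far below them on array 9 were those of basement membrane (6.71), BMP receptor signalling (7.54), VEGF and angiopoietin (7.51), fibroblast and pericyte (7.33), endothelium, general (8.62), endothelium, capillary subtypes (8.57), arterial, venous and lymphatic endothelium (6.85) and alveolar type 1 (9.60). The same held below for ciliated (6.59), interferon response (6.80) and cardiac and skeletal muscle (4.72).

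On wild-type array 1 p53 targets and senescence (6.87, lowest; others 6.96 to 6.98) stood apart from the other wild-type arrays. On wild-type array 4 Mfap2 (9.79, lowest; others all 10.03), Pkig (9.81, highest; others 9.27 to 9.31) and adipose (5.68, lowest; others 6.50 to 6.66) stood apart from the other wild-type arrays. On wild-type array 5 Tgfbr1 (8.24, highest; others 8.10 to 8.12), Gclc (10.02, highest; others 9.70 to 9.75) and cyclic nucleotide phosphodiesterases (6.73, lowest; others 6.77 to 6.78) stood apart from the other wild-type arrays. On wild-type array 6 contractile smooth muscle (8.43, highest; others 8.14 to 8.16) stood apart from the other wild-type arrays.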

How the results depend on the processing

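No paired analysis was possible because the groups share no replicate numbers. Over all genes 0 passed the adjusted threshold under each alternative run, except that without array 9 the fit of the 2 groups alone gave 1 (Ntrk2). The 758 genes at an unadjusted p under 0.05 became 399 with the deposited values and 343 among brighter genes only, and ranged from 561 to 949 when single arrays were left out. The 279 genes without overlap became 77 with deposited values and 152 among brighter genes, and 456 to 675 without any one array, since fewer arrays overlap less. The 872 interaction genes became 1738 with deposited values, 1635 with median centring and 385 among brighter genes. Without array 9, the 630 genes became 390 (deposited values), 993 (2 groups alone), 1089 (array weights) and 275 (brighter genes); the 519 became 215 with deposited values, 282 among brighter genes and 938 to 1253 without a further array; and the 848 became 1273 with median centring and 386 among brighter genes. The causes were not tested, apart from fewer genes tested among brighter genes.

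Of 91 named genes, 3 changed sign. Actc1 stood at 0.25 with array weights and ranged from -0.35 without Marfan array 11 to 0.33 without array 9. Pde5a ranged from -0.31 (without array 8) to 0.034 (without array 9) and Tnnc1 from -0.077 (without array 11; -0.062 without array 8) to 0.41 (without array 9). List medians kept within 1 SD of the arrays in 979 of 989 pairs of list and setting, but their sign turned in 73 of the 989. That SD was taken with array 9 included, which makes it wide for the lists that array 9 moved. The general endothelial list thus counted as kept although its median went from -0.34 to -0.07 without array 9. The 979 therefore does not show that list medians were stable. The neuroendocrine and tuft list holds dim genes only and has no value among brighter genes. A probe set's dimness and 4 against 5 arrays limit what could be told: the median standard error was 0.18.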

Other observations

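Cardiac and skeletal muscle genes were low on array 9 and otherwise tended to lie higher in Marfan lungs, with overlapping groups. Mouse lung holds cardiac muscle in the sleeve of the pulmonary veins, but the list also holds skeletal and ventricular genes. Of its 24 members 11 were dim. The mean of 24 cardiac and skeletal muscle genes was 6.19, 6.12, 6.43 and 6.36 on the wild-type arrays and 6.39, 4.72, 6.34, 6.70 and 6.32 on the Marfan arrays. Of these genes 5 lay higher with all arrays and 18 without array 9, while 6 did so under vehicle. Tnnc1, cardiac troponin C, read 6.88, 6.72, 6.88 and 6.83 against 7.48, 5.57, 6.78, 7.54 and 7.16, a difference of 0.08 ± 0.24 that was 0.41 ± 0.14 without array 9 and -0.37 ± 0.22 under vehicle. Actc1, cardiac actin, stood at -0.15 ± 0.33 and, without array 9, at 0.33 ± 0.15. Myl2 (dim), the ventricular myosin light chain, stood at 0.59 ± 0.22 and 0.51 ± 0.23. The source of these transcripts, and how much vein each sample held, was not tested.

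Cytosolic ribosomal protein genes lay slightly lower in 24 of 25 members (22 without array 9), with a median of -0.07 both ways, and in 25 of 25 under vehicle with a median of -0.10. None had an unadjusted p under 0.05 by limma in the sildenafil comparison. Wnt5a (dim), a ligand of the non-canonical pathway, stood at 0.60 ± 0.26 and at 0.63 ± 0.27 without array 9, against 0.02 ± 0.24 under vehicle. Of 31 Wnt and Notch genes 17 lay lower with all arrays and 12 without array 9. Mmp3, stromelysin, stood at 0.33 ± 0.17 and, without array 9, at 0.43 ± 0.17. Rsad2, the interferon-induced viperin, stood at -0.66 ± 0.28, with wild-type array 4 the highest at 7.61, and at -0.50 ± 0.27 without array 9. Ctsf, cathepsin F, stood at -0.31 ± 0.15 under sildenafil and 0.24 ± 0.14 under vehicle (interaction -0.55; limma, unadjusted p = 0.0136).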
